A study of Rattus norvegicus with 16 samples.

Results

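NAT10 RIP regions were described in the sparsely bound transcripts of rat aortic smooth muscle cells: genes listed in all 3 NAT10 RIP peak lists but with fewer than 5 regions in at least 1 of them. The rule found 281 genes among the 808 genes with any NAT10 region, and these genes held 2229 of the 6034 regions in the 3 lists. List 1 held 870 of the 2229 regions, list 2 held 729 and list 3 held 630. Another 81 genes had 5 or more regions in every list (2968 regions) and are used below for comparison. The remaining 446 genes were absent from at least 1 list. The members were chosen by measured values, their row counts and presence in the lists, so both are given as a description, with no test.

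The cells were primary vascular smooth muscle cells of rat aorta, grown in medium with 20% serum. NAT10 RIP, in which RNA bound to the NAT10 protein is pulled down with an antibody, was done on 3 wild-type samples with no virus. Input RNA and RNA enriched for N4-acetylcytidine (ac4C) came from wild-type cells that received a control adenovirus and from cells in which an adenovirus delivered shRNA to silence Nat10 (knockdown), each for 48 h and with 3 libraries. The RNA levels of the members were therefore measured in virus-treated cells and the NAT10 regions in cells without virus. The replicates are called biological repeats but not separate animals, so p-values cover only variation among these samples, and that variation may be technical.

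NAT10 is the enzyme that acetylates cytidine to ac4C. Its established substrates are tRNAs and the small-subunit ribosomal RNA, and it has also been reported to act on messenger RNA. Smooth muscle cells of the artery wall contract through actin and myosin and secrete the collagen-rich matrix around them, and in culture with serum they shift towards growth, migration and matrix production.

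Input libraries held 6417941 to 12065991 fragments, recovered from the deposited FPKM values, which count fragments per kilobase and are scaled for library size. The depth of the immunoprecipitated libraries is unknown. Nat10 had 7.69, 9.22 and 9.95 FPKM in the controls, above all knockdown libraries with 4.38, 3.68 and 4.58 FPKM (limma adjusted p = 0.227). The 18 contractile smooth muscle genes summed to 6451 to 8413 FPKM in controls and 1366 to 4811 FPKM in knockdown libraries. Endothelial markers (9 of 10 measured) summed to 54.5 to 73.0 FPKM in controls and 53.3 to 108 in knockdown libraries, with Emcn and Cldn5 at 0 throughout. Leukocyte markers (10 of 10) summed to 9.37 to 21.1 and 10.7 to 30.2 FPKM, with Tyrobp and Cd3e at 0, and fibroblast markers (10 of 10) to 302 to 327 and 199 to 270 FPKM. Within each group the libraries differed: 153 of 280 members had their lowest control value in control library 1, and 177 had their lowest knockdown value in knockdown library 2. Counts and list medians of the knockdown comparison are therefore also given without control library 1, knockdown library 2 or knockdown library 3 where they move.

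Most sparsely bound transcripts had a single region in at least 1 list. The lowest of the 3 row counts was 1 in 170 genes, 2 in 60, 3 in 34 and 4 in 17. In 43 genes every list held exactly 1 region, and 202 genes stayed under 5 regions in every list. The other 79 genes reached 5 or more regions in some list, up to 13. Just inside the limit were Mtor, the growth-controlling kinase, with 5, 4 and 5 regions in lists 1 to 3, the kinesin gene Kif13a with 7, 4 and 5, the Ras regulator Nf1 with 12, 7 and 4, and Sash1 with 9, 4 and 4. Just outside were Camsap1, which caps microtubule minus ends, with 6, 5 and 5, the nucleolar gene Tcof1 with 9, 8 and 5, the dystrophin relative Utrn with 8, 5 and 5, and the histone acetyltransferase gene Kat6a with 6, 6 and 5.

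A region in these lists is a stretch of reads enriched in the RIP, given as 1 or more blocks on the genome; a region with several blocks joins stretches that lie apart on the genome. The RNA was fragmented after immunoprecipitation, so a region is not a footprint of the protein. All 2229 member regions had a length in listed bases that was a multiple of 25 nt, from 50 to 1175 nt. Of them, 1093 had 1 block, 844 had 2 and 292 had 3 or more, with at most 5. The authors' log2 enrichment ran from 0.74 to 3.19 with a median of 1.07. It was 1 or more in 1467 regions and 2 or more in 44.

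Overlapping regions of the same gene, sharing at least 1 base, were joined over the 3 lists into 1217 sites. Of these, 309 (25.4%) were in all 3 lists, 323 in 2 lists and 585 (48.1%) in 1 list. At least 1 site in all lists was found in 210 members, and the other 71 had none, although the gene itself was in every list. Sites in all lists covered more bases, counted over the joined regions, with a median of 175 nt against 75 nt for sites in 1 list. They also had more than 1 block more often, in 69.6% against 39.1%, with blocks likewise counted over the joined regions. Joining regions of more lists can itself add bases and blocks, so neither difference is read as a trait of recurrent sites. Their median log2 enrichment was 1.06, against 1.05 for sites in 2 lists and 1.09 for sites in 1 list.

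Genes with 1 region per list mostly had it in the same place. In 35 of the 43 such genes the 3 regions overlapped, and in 1 gene, the focal adhesion gene Tns1, they were 3 separate sites. Within sites found in all lists the enrichment was close between lists, with a median SD of 0.0679 on the log2 scale and a 90th percentile of 0.165. Across these 309 sites, Pearson's r of the log2 enrichment was 0.83 between lists 1 and 2, 0.70 between lists 1 and 3 and 0.76 between lists 2 and 3. These are descriptions over sites, which share libraries and genes. The series holds 1 non-immunoprecipitated RIP library for the 3 lists, and whether their enrichments share it as control is not known.

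By list, 35.6%, 42.1% and 50.2% of member regions were found in all 3 lists, against 60.3%, 69.6% and 79.9% of the regions of the many-region genes. Regions found in their own list only made up 29.7%, 22.9% and 25.4% of member regions, and 16.3%, 7.61% and 8.33% in the many-region genes. Members stood lower in every list, with a mean difference of -27.3 ± 2.58 percentage points (SD, n = 3 lists). The rule used the row counts and presence in the lists, so no test was made.

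**Figure D1:**
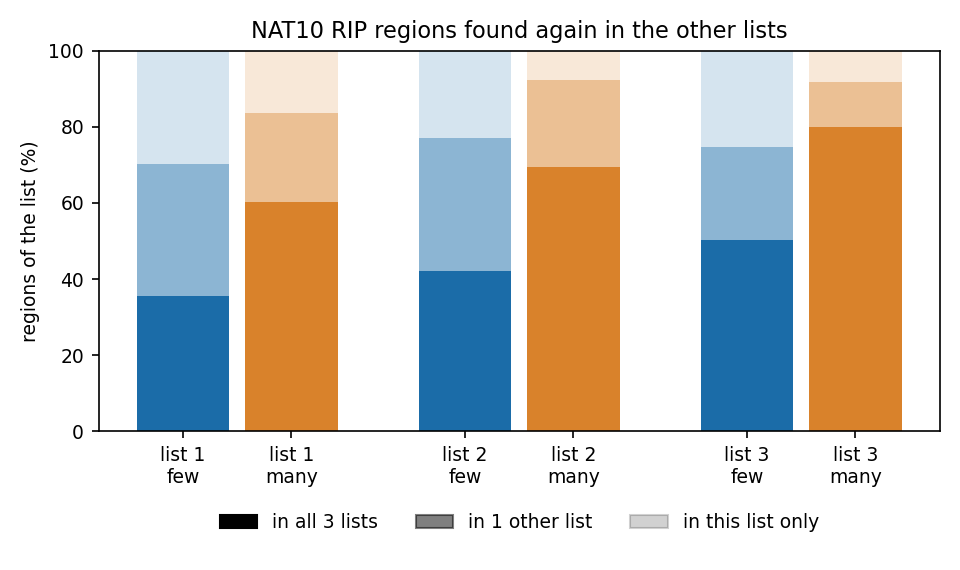
Stacked bars give the share of regions (y axis, %) of each NAT10 RIP list found in all 3 lists, in 1 other list or in that list only, for the sparsely bound genes ("few", blue) and the genes with 5 or more regions in every list ("many", orange). The dark part is lower for the sparsely bound genes in each list, 35.6%, 42.1% and 50.2% against 60.3%, 69.6% and 79.9%.

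Member regions were also shorter and more often of a single block. Their median length was 100 nt in each list, against 175 nt in the many-region genes. Regions of more than 1 block made up 51.7%, 52.8% and 47.8% of member regions and 61.3%, 60.4% and 60.2% of the others. The difference, members minus others, was -9.85 ± 2.45 percentage points (SD, n = 3) and had the same direction in all 3 lists. The exact sign-flip permutation test over the 3 lists gave p = 0.25 (two-sided), which is the smallest p that 3 lists allow.

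In the minority of members where position could be set, regions lay on average slightly past the middle of the listed stretch of the gene. Position was measured by the region's midpoint between the outermost bases listed for the gene in any NAT10 or ac4C list, introns included, since gene models of the lists' build were not used here. It could be set in 62 of the 281 members and in 65 many-region genes, in which the listed bases made up at least 30% of the gene's length. These members held 226 of the 870 member regions in list 1, 210 of 729 in list 2 and 152 of 630 in list 3. On a scale from 0% at the 5′ end of the listed stretch to 100% at its 3′ end, the mean position was 57.0%, 57.3% and 56.9% in these members. It was 58.0%, 58.5% and 59.3% in the others. Of 3 equal parts, the most 5′ held 26.0 ± 2.21% of the placed member regions and the most 3′ held 41.6 ± 1.96% (SD, n = 3). The mean difference of -1.55 ± 0.755 percentage points (exact sign-flip permutation test over 3 lists, p = 0.25) turned to 3.68 when only regions of 1 block were used, so no direction is given.

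**Figure D2:**
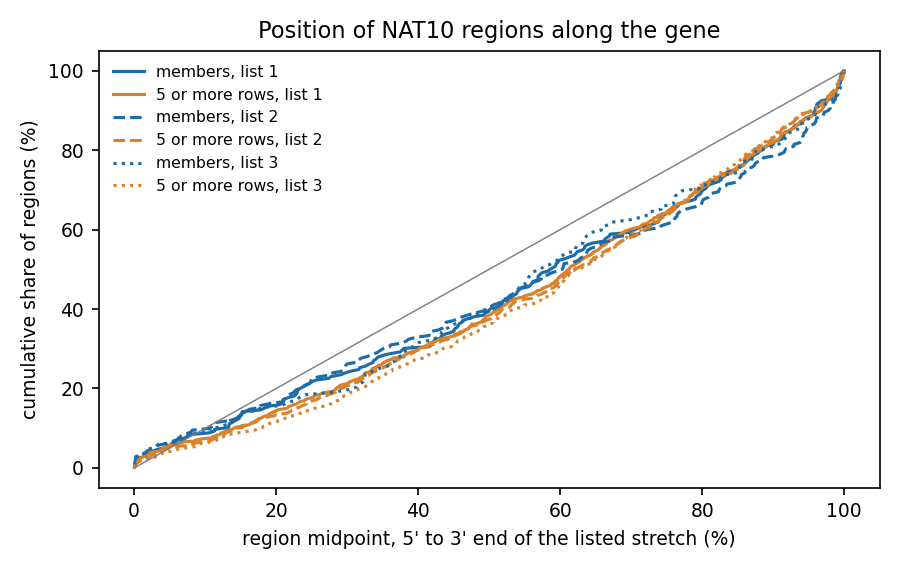
Cumulative share of regions (y axis, %) against the position of the region's midpoint in the listed stretch of the gene (x axis, %, 5′ to 3′). Each list and gene class has 1 line. The grey diagonal marks an even spread over that genomic stretch, introns included. Regions spread evenly over the transcript need not follow it. All 6 lines run below the diagonal over most of the range, and the member lines (means 57.0%, 57.3% and 56.9%) lie close to those of the genes with many regions.

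The sparsely bound transcripts were long, but shorter than the heavily bound ones. Gene length, recovered from the FPKM values, had a median of 4757 nt over 280 members (483 to 18552 nt), against 7742 nt in the many-region genes and 2054 nt over the 13450 genes with a mean of at least 1 FPKM. Within the 280 members, Spearman's rank correlation between total regions and length was 0.40 and between total regions and control FPKM was -0.03. Regions of any list covered a median of 9.78% of a member's length, and 41.7% in the many-region genes.

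**Figure D3:**
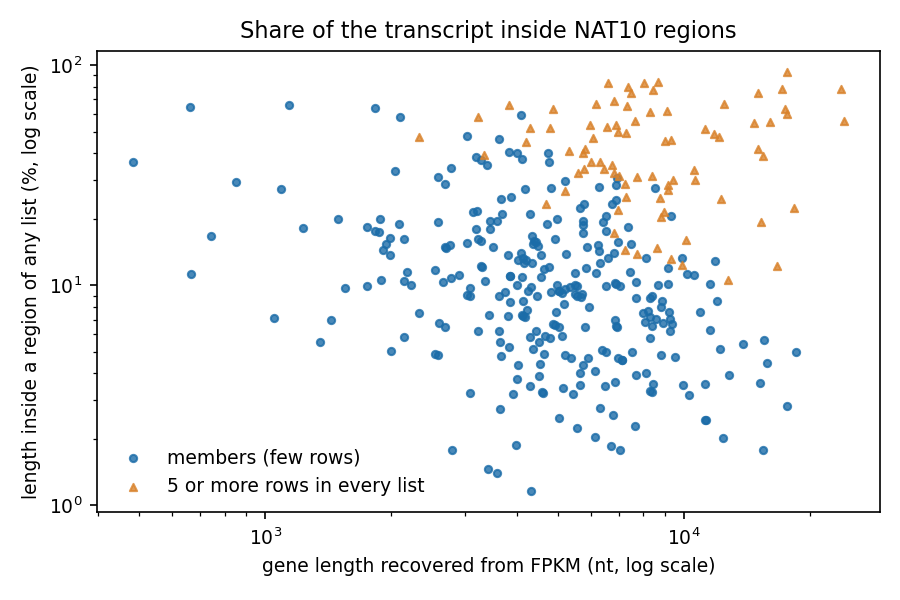
Each point is a gene; the x axis is its length in nt and the y axis the share of that length inside a region of any NAT10 RIP list in %, both on log scales. Sparsely bound genes (blue circles) have a median covered share of 9.78%, and genes with 5 or more regions in every list (orange triangles) of 41.7%.

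Nearly all members were well expressed. Their mean control level had a median of 35.9 FPKM (4.37 to 4143), against 9.77 FPKM over the 13450 expressed genes and 48.1 FPKM in the many-region genes. By library, the member median was 34.9, 37.3 and 36.9 FPKM in controls and 33.4, 28.0 and 39.7 FPKM in knockdown cells. In all, 269 members stood above the median expressed gene, 56 were over 100 FPKM and 2 were under 5. How far the level bears on whether a region is called was not tested, so these levels are a description.

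Members with a low RNA level had the higher enrichment but the less repeatable sites. With the 280 members in 4 equal groups by control FPKM, the median best log2 enrichment was 1.49 in the lowest group (up to 22.4 FPKM), then 1.27, 1.10 and 1.05 in the highest (from 80.4 FPKM). The share of sites found in all lists ran the other way, with 17.2%, 20.3%, 28.3% and 41.2%. Sites found in 1 list made up 56.8%, 54.4%, 45.1% and 30.7%. Length moved with both: the median was 6483 nt in the lowest group and 5648, 4573 and 3601 nt in the others. Spearman's rank correlation over the 280 members was -0.59 between best enrichment and control FPKM and 0.37 between best enrichment and length. The parts of level, length and the caller's threshold in these figures were not tested.

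**Figure D4:**
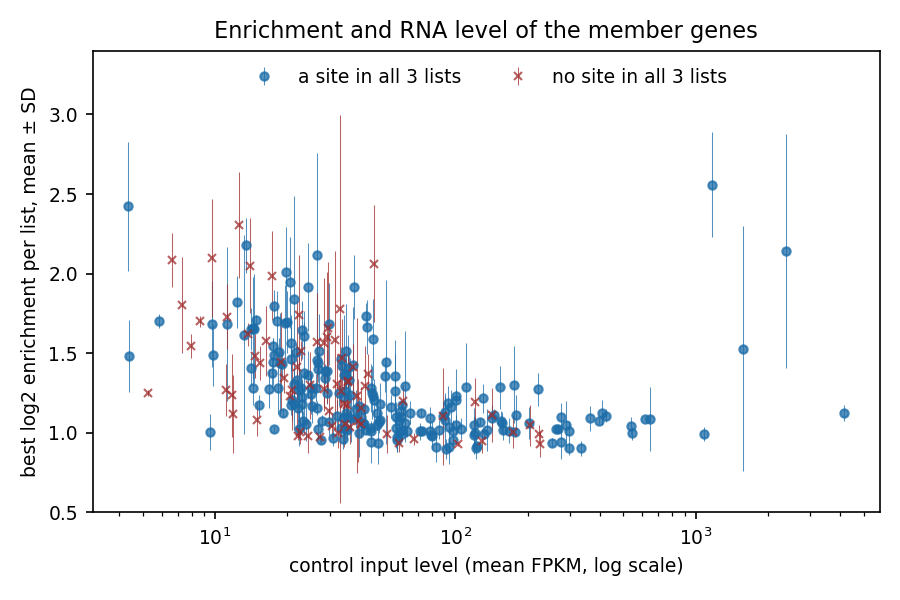
Each point is a sparsely bound gene, with its mean control input level (x axis, FPKM, log scale) and the best log2 enrichment of its NAT10 regions per list (y axis, mean ± SD over 3 lists); blue circles have a site in all 3 lists and red crosses have none. The highest means sit mostly below 50 FPKM apart from AABR07000398.1 (2.56), Mt-nd5 (2.14) and AABR07015057.1 (1.53) on the right.

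The 8 members with the highest enrichment ranged from very scarce to very abundant transcripts. AABR07000398.1, a protein-coding gene known by its clone name only, had best log2 enrichments of 2.73, 2.18 and 2.77 in lists 1 to 3. Its 3, 2 and 1 regions joined into 1 site of 750 nt in 5 blocks at chr1:11963861-11968574 on the plus strand. Its control level was 1181, 359 and 1973 FPKM, so control library 2 stood far below the other libraries. AABR07062512.1, also known by its clone name, was the opposite case: a control mean of 4.37 FPKM, the lowest of all members, with 1 region per list in the same place (chr4:180486231-180493041, minus strand) and enrichments of 1.99, 2.80 and 2.47.

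Mt-nd5 encodes a core subunit of respiratory complex I and was the only member on the mitochondrial genome. Its site at MT:11986-13160 on the plus strand was a single block of 1175 nt, the longest of the members, and made up 64.2% of the gene's length. The enrichment was 2.77, 2.31 and 1.34 in lists 1 to 3, so list 3 stood well below the others. Its control level was 2781, 2247 and 2116 FPKM.

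Mtor and Rnf213 had high enrichment at places that did not repeat in all lists. Mtor had best log2 enrichments of 2.69, 2.17 and 2.06, but its 14 rows made 13 sites, 12 of them in 1 list and none in all 3. Its strongest region, 50 nt at chr5:165364524-165364573, was in list 1 only. Rnf213, a giant ubiquitin ligase known from moyamoya artery disease, had 2.07, 2.26 and 1.93 with 3 sites, 2 of them in 2 lists. Their mean control levels were low, at 12.6 and 6.65 FPKM.

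Tenm3 and Myo5a had both high enrichment and a fixed place. Tenm3, a teneurin cell-adhesion receptor, had 1 region per list at chr16:46908155-46908329 (plus strand, 175 nt), with enrichments of 2.25, 2.30 and 1.98. This site was 2.29% of its 7638 nt. Myo5a, the cargo-carrying myosin Va, had 3 sites in all lists within chr8:82086672-82097529. The middle one of them (chr8:82091964-82092955, 225 nt in 2 blocks) had 1.54, 2.02 and 2.80, and the outer ones had means of 1.23 and 1.35.

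Phf20, Pard3 and P3h1 also had exactly 1 region per list, in 1 place in all lists, and Ddx18 had its regions at 2 places. Phf20, a chromatin reader of histone acetyltransferase complexes, had 2.14, 2.21 and 1.68 at chr3:152356516-152362172 (plus strand, 275 nt in 2 blocks). Pard3, a cell polarity scaffold, had 1.52, 1.65 and 1.79 at chr19:60370784-60370908. P3h1, a collagen prolyl hydroxylase of the endoplasmic reticulum, had 1.87, 1.40 and 1.48 at chr5:138283159-138283283. In Ddx18, a nucleolar RNA helicase, the 1.59 and 1.56 of lists 1 and 2 came from chr13:37530088-37530478, and the 1.70 of list 3 from chr13:37528350-37528424.

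Apart from Mt-nd5 and AABR07000398.1, most of the highest-level members had modest enrichment, at a place that returned in every list. Thbs1, the secreted matrix glycoprotein thrombospondin 1, had 4 regions in each list, which made 4 sites that were all found 3 times between chr3:109864118 and chr3:109872000. Their mean log2 enrichments were 0.97, 1.12, 0.96 and 0.98, and its control level was 2505, 5042 and 4882 FPKM. Tpm4, a tropomyosin of actin filaments, had a single site of 75 nt at chr16:19396713-19399752 with 0.96, 0.97 and 1.04. Itgb1, the integrin beta 1 subunit that links cells to matrix, had 1 of its 2 sites in all lists, at chr19:61697097-61698729 with 0.94, 1.00 and 1.31. AABR07015057.1 had 1.12, 1.05 and 2.42 at chr14:46524019-46524339, with control levels of 722, 3605 and 384 FPKM that spread over several fold.

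At the low end of RNA level the recurrence was mixed. Pde4b, a cAMP phosphodiesterase, had 2 of 4 sites in all lists, and Ank2, a membrane-skeleton ankyrin, had its 4 regions in 1 site (1.70, 1.74 and 1.66). Xdh, the xanthine oxidoreductase gene, had 6 sites and none in all lists, and Utp20, of the small-subunit processome, had 4 and none. Mean control levels were 4.38 FPKM for Pde4b, 5.29 for Xdh, 5.84 for Ank2 and 7.31 for Utp20.

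Gene function was described with lists of related genes. For scale, members made up 2.08% of all expressed genes. Of 37 expressed collagens and matrix genes, 10 were members: Col4a2, Col5a1, Col6a1, Col11a1, Lamb1, Lamb2, Ltbp1, Postn, Thbs1 and Thbs2. Members also made up 10 of 31 RNA processing and translation genes, 10 of 40 chromatin and transcription genes, 5 of 24 large kinases and related receptors, 5 of 21 motor and trafficking genes, 6 of 32 regulators of small GTPases, 4 of 17 calcium channels and pumps, and 4 of 20 ubiquitin ligases. The actin linker and adhesion list had 4 of 26 as members and 14 among the many-region genes. No expressed cell-cycle gene (0 of 34), endothelial marker (0 of 2) or leukocyte marker (0 of 3) was a member. Of 17 contractile genes only Tpm2, and of 9 fibroblast markers only Pdgfra, was one. The lists were drawn up with earlier results of these data known, so these counts stand as a description.

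The lists differed in level and enrichment. Matrix members had a median control level of 149 FPKM and a median best enrichment of 1.07, and 9 of the 10 had a site in all lists. Ubiquitin ligase members (Hectd4, Herc1, Rnf213 and Trip12) had 11.8 FPKM and 1.87, and 2 of the 4 had such a site. Calcium channel and pump members had 28.1 FPKM and 1.56, with the inositol trisphosphate receptor gene Itpr1 at 2.17, 2.13 and 1.67 and its relative Itpr3 at 2.21, 1.64 and 1.99. Chromatin members had 24.9 FPKM and 1.38, led by the transcriptional repressor Spen at 1.47, 2.17 and 1.57.

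A further grouping, made by reading the member names, placed 187 members into 14 groups. The largest was chromatin and transcription with 42 genes, among them the histone methyltransferase genes Kmt2a, Setd2 and Nsd1, the demethylase genes Kdm5a, Kdm5b and Kdm5c, and the transcription factor genes Myc and Hif1a. Myc had 1 site in all lists, 75 nt at chr7:102588553-102588627, with 1.10, 1.05 and 0.93. Hif1a, the hypoxia-response factor, had its only site in all lists with 1.09, 0.90 and 0.94. Other groups were RNA splicing, decay and modification (18 genes, 15 with a site in all lists), translation factors and tRNA synthetases (12 genes, 9 with one), chaperones (7 of 7), and nucleolus and ribosome assembly (5 of 7). The splicing group holds Nsun2, an enzyme that methylates cytidine in RNA, with 1.34, 1.09 and 1.18.

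Knockdown and control Input RNA were compared to ask whether the RNA of sparsely bound genes differed after NAT10 was lowered. No member passed the threshold: 0 of 280 had a limma adjusted p under 0.05, against 0 of 13450 genes (0% in each direction), and the lowest adjusted p, 0.155, belonged to the member Col4a2. At an unadjusted p under 0.05, limma gave 33 members lower (11.8%; 6.95% of all genes tested) and 9 higher (3.21%; 5.53% of all). Libraries of the groups did not overlap in 43 members that stood lower (15.4%; 10.9% of all) and in 18 that stood higher (6.43%; 9.63% of all). The median log2 change of members was -0.12, against -0.01 over all genes and -0.08 in the many-region genes, and 177 members (63.2%) had a negative change, against 51.4% of all genes. Log2 changes are on the log2(FPKM + 1) scale.

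These counts moved with knockdown library 2. Without it, 149 of 280 members (53.2%) had a negative change, against 51.6% of all genes, and the median was -0.04. The non-overlapping members were then 56 lower (20.0%; 18.6% of all genes) and 62 higher (22.1%; 17.7% of all genes). Without control library 1 the median was -0.16 with 180 negative (64.3%; 50.8% of all genes), and without knockdown library 3 it was -0.26 with 191 negative (68.2%; 50.6% of all genes). Non-overlapping members numbered 102 lower (36.4%, against 19.8% of all genes) and 25 higher (8.93%, against 18.4%) without knockdown library 3. They numbered 71 lower (25.4%, against 18.4% of all genes) and 25 higher (8.93%, against 16.4%) without control library 1. The unadjusted counts moved as well: 29 lower and 28 higher without knockdown library 2, and 69 lower and 13 higher without knockdown library 3. No share of all genes is given for these unadjusted counts, so they are not set against the other genes. With limma's library quality weights, which were lowest for knockdown library 2 (0.235), knockdown library 3 (0.416) and control library 1 (0.559), 16 members and 335 genes in all passed the threshold.

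The 6 members with the smallest p among those lower were Col4a2, Tpm2, Col11a1, Col5a1, Itgb1 and Vldlr. Col4a2, a basement membrane collagen chain, stood at 160, 96.6 and 102 FPKM in controls and 17.98, 12.5 and 19.9 FPKM in knockdown libraries, a log2 change of -2.75 ± 0.26 (SE, limma adjusted p = 0.155). All 3 knockdown libraries were far below the controls. Tpm2, beta-tropomyosin of the contractile filament, stood at 716, 566 and 572 FPKM against 167, 92.5 and 214 (-2.03 ± 0.33, limma adjusted p = 0.193). Col11a1, a fibril-forming collagen chain, stood at 223, 157 and 159 FPKM against 24.4, 31.4 and 80.2 (-2.13 ± 0.43, limma adjusted p = 0.227). Its knockdown libraries did not overlap the controls either, although library 3 was nearer to them.

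Col5a1, which starts collagen fibrils, stood at 379, 413 and 432 FPKM in controls and 99.1, 94.0 and 225 in knockdown libraries (-1.66 ± 0.35). Itgb1 stood at 535, 694 and 701 FPKM against 160, 87.4 and 324 (-1.94 ± 0.45). Vldlr, a lipoprotein and reelin receptor, stood at 205, 134 and 136 FPKM against 47.2, 40.4 and 96.4 (-1.43 ± 0.35). Their limma adjusted p-values were 0.245, 0.266 and 0.273, and in none of them did the groups overlap. With no overlap in these 6 genes, leaving out any 1 of the 6 input libraries cannot turn the sign of the change, so that is no check.

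On the higher side the values were smaller apart from Hsph1. Hsph1, a cytosolic heat-shock protein of the HSP110 family, stood at 52.8, 54.3 and 63.5 FPKM in controls and 203, 85.6 and 273 in knockdown libraries (1.55 ± 0.41, limma adjusted p = 0.281). Stip1, which hands clients between HSP70 and HSP90, stood at 123, 106 and 104 FPKM against 164, 152 and 191 (0.60 ± 0.17). Cep170b, a microtubule-associated protein gene, stood at 29.0, 26.5 and 25.8 FPKM against 42.3, 41.9 and 41.6 (0.61 ± 0.14). The knockdown libraries of Cep170b were nearly equal, and those of Hsph1 ranged over several fold. Tnks, the poly-ADP-ribosylating enzyme tankyrase, Cebpz, a nucleolar protein gene, and Phf20 had changes of 0.72, 0.51 and 0.39, and the limma adjusted p of the 6 genes ran from 0.266 for Cep170b to 0.383 for Phf20.

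**Figure D5:**
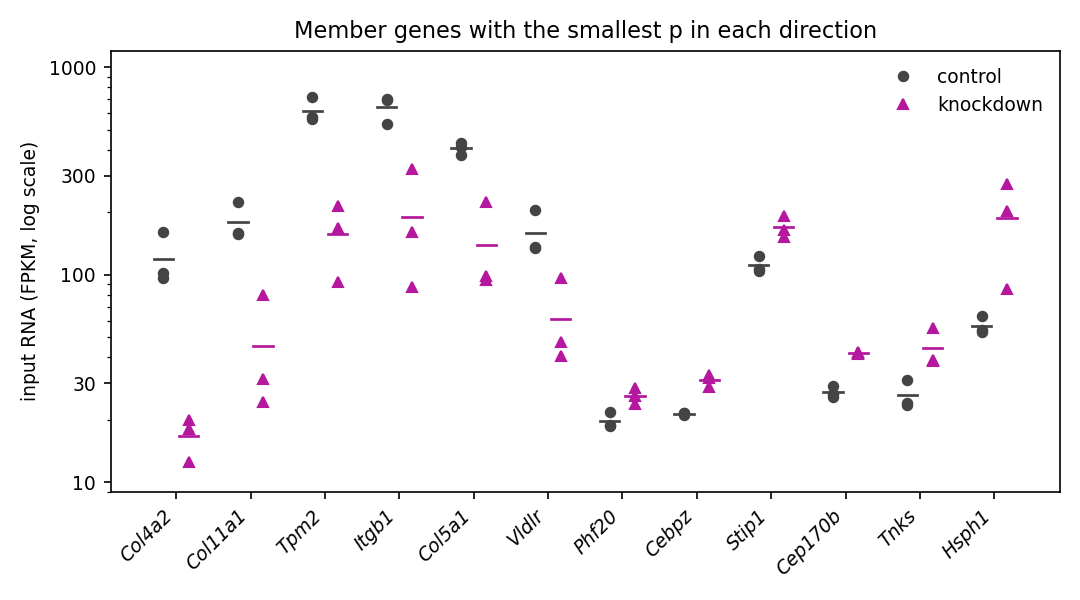
Input RNA (y axis, FPKM, log scale) of the 12 sparsely bound genes with the smallest p in each direction, ordered by their log2 change; grey circles are the 3 control libraries, purple triangles the 3 knockdown libraries, and bars their means. The groups do not overlap in any of the 12 genes, from Col4a2 (log2 change -2.75) on the left to Hsph1 (1.55) on the right.

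By list, all 10 matrix members had a negative change (median -1.19). In 6 of them the groups did not overlap (60%, against 15.4% of members and 10.9% of all genes lower). Without knockdown library 2, 8 of 10 were negative with a median of -0.91, and 6 did not overlap (60%, against 18.6% of all genes lower). Without control library 1 the median was -1.27 with 9 not overlapping (90%, against 18.4% of all genes lower). Without knockdown library 3 it was -1.69 with 7 not overlapping (70%, against 19.8% of all genes lower). With all libraries, the matrix members that overlapped included Thbs1. It stood at 2505, 5042 and 4882 FPKM in controls and 2580, 305 and 4206 in knockdown libraries, where library 2 alone was low. Ltbp1, a TGF-beta binding matrix protein gene, was low in control library 1 (23.8, against 76.9 and 73.7 FPKM) and in knockdown library 2 (16.1, against 58.0 and 66.9). The 4 actin linker members, Actn1, Actn4, Itgb1 and Vcl, all had non-overlapping lower values (100%, against 10.9% of all genes). Leaving out a library cannot undo this. Their median change was -0.87, and -1.10 to -0.81 without control library 1, knockdown library 2 or knockdown library 3. Contractile genes and fibroblast markers stood lower in the knockdown libraries as well, as given above, and the part of cell state in these values was not tested. In these bulk samples, fewer cells of a type and less RNA per cell cannot be told apart.

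The other lists had smaller median changes, in both directions. Of the chromatin members 2 of 10 had a negative change (median 0.11; 0.03 to 0.25 with control library 1, knockdown library 2 or knockdown library 3 left out). Of the RNA processing and translation members 2 of 10 were negative (median 0.16; 0.17 to 0.27 with 1 of those libraries left out). Of these 10, Eif3a, Ranbp2 and the nuclear import gene Tnpo1 had non-overlapping higher values (30%, against 9.63% of all genes). The splicing gene Srrm2 had non-overlapping lower ones (10%, near the 10.9% of all genes). Eif3a, a scaffold subunit of the translation initiation factor eIF3, stood at 85.7, 88.1 and 92.7 FPKM in controls and 118, 111 and 108 in knockdown libraries. The motor members had a median of -0.26 with 4 of 5 negative, and -0.28 to -0.23 with 1 of those libraries left out. The GTPase regulators had -0.29 with 4 of 6 negative, and -0.41 to -0.10. Without knockdown library 2 the sign turned for the kinases, from -0.04 to 0.19, and for the calcium channels and pumps, from -0.09 to 0.21. Without knockdown library 3 they had -0.18 and -0.37. The ubiquitin ligases had 0.04, and 0.01 to 0.11. Mtor itself stood at 9.95, 14.3 and 13.5 FPKM in controls and 12.9, 9.11 and 13.8 in knockdown libraries (-0.08 ± 0.22), with overlapping groups.

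In the groups made by reading the names, the 13 kinesin, myosin and microtubule genes all had a negative change (median -0.31). In 6 the groups did not overlap (46.2%, against 15.4% of members and 10.9% of all genes lower). Without knockdown library 2, 11 of 13 were negative with a median of -0.20. Leaving out knockdown library 3 gave a median of -0.56, with 10 not overlapping (76.9%, against 36.4% of members and 19.8% of all genes lower). Groups separate more easily with 1 library fewer. Map1a, a microtubule-binding protein gene, stood at 31.3, 33.7 and 36.1 FPKM in controls and 10.3, 14.2 and 24.0 in knockdown libraries (-1.09 ± 0.29). Among 7 chaperone genes 1 was negative (median 0.24), and among 7 nucleolar genes 1 was negative (median 0.20). Without knockdown library 2 the chaperone median was 0.03 with 3 negative, and the nucleolar median was 0.48 with 1 negative. Without knockdown library 3 they were 0.36 with 1 negative and 0.02 with 2 negative. These groups were chosen with the values known and support nothing on their own.

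ac4C peak lists were set beside the members to ask whether the NAT10-bound transcripts also held ac4C regions. With all rows, 146, 120 and 141 of the 281 members had an ac4C peak in the control lists and 127, 127 and 118 in the knockdown lists. The shares were 48.3 ± 4.91% and 44.1 ± 1.85% (SD, n = 3 each; exact permutation test, two-sided, p = 0.3, smallest possible 0.1). Of all expressed genes, 33.9 ± 11.7% had a peak in the control lists and 16.6 ± 1.69% in the knockdown lists. In control lists 1 and 2 most rows carried one shared p-value. Without those rows the control counts were 120, 84 and 141, a mean of 40.9%, and the difference turned from 4.15 to -3.20 percentage points (exact permutation p = 0.8). The control share of all expressed genes was then 17.1%.

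Few NAT10 sites were overlapped by an ac4C peak, in each of the 6 lists. Of the 1217 NAT10 sites, 28, 19 and 30 were overlapped by an ac4C peak in the control lists and 33, 50 and 47 in the knockdown lists. That is 2.11 ± 0.481% against 3.56 ± 0.746%, with every knockdown list above every control list, and the exact permutation test gave p = 0.1, the smallest that 3 against 3 allow. Leaving out the rows at the shared p gave 23, 15 and 30 in the control lists, with the same exact permutation p of 0.1. The lists differed in size, with 29998, 29593 and 3479 peaks in controls and 3111, 2658 and 2592 in knockdown lists. Without the rows at the shared p the control lists held 3117, 1920 and 3479. The part of peak number and peak width in the overlap was not tested. In members that held an ac4C peak in the list at all, 4.26%, 4.09% and 4.69% of the sites were overlapped in controls and 6.26%, 9.04% and 9.87% in knockdown lists, again without overlap of the groups (exact permutation p = 0.1).

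With those rows left out, 27 members had an ac4C peak in all 6 lists (9.61%; 2.09% of all expressed genes) and 40 had none in any list (14.2%; 52.4% of all expressed genes). Members were also longer and higher in level than the median expressed gene, as given above, and the part of length and level in these shares was not tested. Hsp90b1, the HSP90 of the endoplasmic reticulum, had 4, 4 and 4 peaks in control and 3, 2 and 4 in knockdown lists. Ncl, the nucleolar protein nucleolin, had 4, 2 and 3 against 2, 3 and 3. Peaks in all 3 control and no knockdown list were found in 5 of 281 members, against 66 of 13450 expressed genes (0.491%). The 5 were Arhgap35, a regulator of small GTPases, Nbr1, an autophagy receptor, Copa, a coat protein of Golgi vesicles, the ubiquitin ligase Nedd4, and the integrin subunit Itga1. The reverse was found in 1 of 281 members, LOC108348180, against 40 of 13450 expressed genes (0.297%). None of these counts was tested.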

How the data were processed

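Per the submitters' processing notes, the authors' tools were DESeq2, HOMER 4.10.4, featureCounts 1.6.3, HISAT2 2.1.0 and cutadapt 2.5, and rn6 is the only rat build named; the step each served was not given in the sources used here. The authors deposited input expression as FPKM for each library. They deposited 1 NAT10 RIP list per sample, with a log2 enrichment, p-values and their −log10 p per region, per the file headers, and 1 ac4C list per sample with a p-value per peak. Peaks were called per sample; the callers and the RIP control were not given in the sources used here, and the non-immunoprecipitated RIP library was not analysed here. RIP RNA was fragmented after immunoprecipitation, per the labels' protocols. Coordinates follow the lists, counted from 1.

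Members were genes in all 3 RIP lists with under 5 rows in at least 1; 1 row naming a pair of gene IDs had no FPKM. Regions were joined into sites at 1 shared base. Gene lengths and fragments were recovered from FPKM by a search for whole fragments in all libraries, found for 21401 of 21401 genes and 0 of 300 altered genes. Genes of mean FPKM at least 1 were tested with limma 3.58.1 (R 4.3.3) on log2(FPKM + 1) with a trend, two-sided, Benjamini-Hochberg adjusted over all 13450 genes at 0.05. The code was run on simulated data with large changes and a smaller spread than the real libraries. That run checks the code only and does not show what the fit can detect in these data. Single values were compared over lists or libraries with exact permutation tests. Precision is limited by 3 libraries per group.

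Named genes were the 8 members with the highest mean of their best enrichment, the 6 with the highest and the 6 with the lowest control level, the 6 with the smallest p in each direction, up to 6 with 1 region in every list, 4 on each side of the row limit, up to 4 per functional list, and Nat10 and Itgb1; Col1a2 was also in the rule and is no member. Other genes were named after their values were seen. One gene that the rule names is not reported here. The members, the lists and the tests were chosen with earlier results of these data known. Alternatives were other row limits, overlap rules, pseudocounts, filters, scalings, weights, a replicate block and leaving out each library.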

Additional observations from a re-analysis of the deposited data

How the results depend on the processing

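Another row limit kept the number of member genes within 1.5 times (230 under 3 rows, 332 under 10), but gave 1478 and 3531 regions; leaving out 1 RIP list gave 313 to 336 genes and 1433 to 1518 regions. The share of member regions found in all lists, 42.6%, became 24.6% with a reciprocal overlap of 50% of the span, 26.6% with regions at or above each list's median enrichment, 51.1% under 10 rows and 53.7% to 61.3% without 1 list, where 2 lists had to share a region. The position difference became 3.68 with regions of 1 block and -4.07 along listed bases without introns (chosen after seeing the data), and was -6.17 to -0.82 without 1 list. The multi-block difference kept its sign throughout. The ac4C difference of 4.15 points turned to -2.02 without the most common p of each list and to -3.20 without the p that fills most of a list (chosen after seeing the data), and was 2.31 to 6.94 without 1 library. The cause was not tested. Members called numbered 16 with library quality weights and 0 in every other fit. Deviations of same-numbered libraries correlated at r = -0.21, -0.28 and 0.18. They were taken from the means of groups of 3, so these values cannot tell whether the numbers pair the libraries. A replicate block called 0 members and gave 25 lower and 5 higher at an unadjusted p under 0.05, with no share of all genes given. For the 12 genes named for their p, the limma adjusted p ran from 0.0176 to 0.830 over all 132 alternatives. Of these, 123 kept their side of the threshold and 9 passed it, all with quality weights. The RIP and ac4C lists hold no read totals, so a site missing from a list may be undetected there.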

Other observations

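Several members were heavily listed in 1 sample and sparse in another; these were chosen after their values were seen. Chd8, a chromatin remodeller mutated in autism, had 13 regions in list 1, 11 in list 2 and 2 in list 3. Gtf3c1, the largest subunit of the RNA polymerase III factor TFIIIC, had 8, 12 and 3, and Ckap5, a microtubule polymerase, had 11, 5 and 2. List 3 held the most regions in Slit3, a secreted guidance ligand, with 3, 1 and 9, in Itpr3 with 1, 2 and 7, and in Nav1, a microtubule-binding neuron navigator gene, with 7, 3 and 10. As for their best log2 enrichment, Chd8 had 1.67, 1.81 and 1.45, Gtf3c1 had 1.44, 1.54 and 1.54, Ckap5 had 1.51, 1.38 and 1.43, Slit3 had 1.02, 0.96 and 1.06, Itpr3 had 2.21, 1.64 and 1.99 and Nav1 had 1.56, 1.58 and 1.86. Sites found in all lists numbered 2 of 15 in Chd8, 3 of 12 in Gtf3c1, 1 of 13 in Ckap5, 1 of 9 in Slit3, 1 of 7 in Itpr3 and 3 of 9 in Nav1. The depth of the lists, which could bear on row counts, is not known.

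Among the members were 4 genes of TGF-beta signalling, Tgfb2, Smad3, Smad7 and Smurf2, found by reading the member names; how many pathway genes are no members was not counted. The ligand gene Tgfb2 had 1 region per list in 1 shared site, with log2 enrichments of 0.89, 1.07 and 0.87. The signal transducer gene Smad3 had 1, 3 and 3 regions with best enrichments of 1.16, 1.12 and 1.10, and the inhibitor gene Smad7 had 1 per list at 2 sites, with 1.57, 1.20 and 1.19. Smurf2, a ubiquitin ligase that acts on Smad proteins, had 2, 1 and 1 regions with 1.54, 1.25 and 1.44. Tgfb2 stood at 323, 259 and 245 FPKM in controls and 122, 82.3 and 278 in knockdown libraries, with overlapping groups. Smad7 had control values of 35.9, 37.4 and 34.0 FPKM and knockdown values of 75.7, 19.6 and 73.8 FPKM, where library 2 lay below all controls and the others above.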
